A study of Mus musculus with 12 samples.

Results

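Bile duct cells (cholangiocytes) arise in the fetal liver from hepatoblasts next to the portal veins, which first form a single-layered sheet, the ductal plate, and then remodel it into ducts. The genes described here are 8 that mark these cells or direct that process: the transcription factors *Sox9* and *Onecut1*, the Notch ligand *Jag1* and the receptor *Notch2*, the keratins *Krt7* and *Krt19*, the surface adhesion molecule *Epcam* and the secreted matrix protein *Spp1* (osteopontin). They were chosen by gene symbol for these known roles, with earlier results of these data known. All 8 were found among the 24421 gene rows of the count tables. The samples were livers and lungs of newborn mice that were wild type (*Man1a2*+/+, WT) or homozygous null (*Man1a2*-/-), 3 libraries for each genotype and tissue and 12 in all. Both genotypes came from crosses of *Man1a2*+/- mice carrying the tm1.1Ahe allele, which lacks exon 2, and tissue was taken 30 to 60 min after birth. *Man1a2* encodes a Golgi alpha-mannosidase that trims N-linked glycans, and the loss is in the whole body. The null pups are known to die of respiratory failure, and whole pieces of tissue were sequenced, so a lower level from fewer cells of a type cannot be told apart from less RNA per cell.

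In bile duct formation, Jag1 on portal mesenchyme is known to activate Notch2 on neighbouring hepatoblasts, and the released Notch2 fragment acts with Rbpj to switch on genes such as *Hes1* and *Sox9*. Sox9 is among the earliest markers of the ductal plate. Onecut1 (HNF6) restrains the biliary fate in hepatoblasts and is also expressed in hepatocytes, while *Krt7*, *Krt19*, *Epcam* and *Spp1* mark the formed duct cells. The lung serves as a contrast, since its airway and alveolar epithelium also uses keratins and *Epcam* but has no bile ducts.

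The libraries held between 26759463 and 42914295 reads assigned to genes. The tissue labels held: the summed level of 15 hepatoblast and hepatocyte genes lay between 108665 and 179638 CPM (counts per 1000000 reads, in this paragraph scaled within each tissue) in the livers and between 977 and 2850 CPM in the lungs. *Man1a2* itself was lower in every null library than in every WT library of its tissue, with a log2 fold change of -0.47 in liver (edgeR adjusted *p* = 0.0809) and -1.01 in lung (adjusted *p* = 0.0614), counted over all exons including those that the null allele retains. Of the 12 libraries, 2 stood apart. The null liver of number 1 held 5866 CPM of 7 skeletal muscle genes against 5.21 to 7.82 CPM in the other livers, and 2681 CPM of 12 portal mesenchyme genes against 652 to 819 CPM. The null lung of number 1 held 12877 CPM of the muscle genes against 24.2 to 72.1 CPM in the other lungs, and only 4344 CPM of 18 lung epithelial genes against 28794 to 39957 CPM. Counts and values of the 8 genes are therefore also given without the library concerned where that changes them.

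Levels of different genes were compared per kilobase of exon, on CPM scaled with TMM factors (trimmed mean of M values) over all 12 libraries. In WT liver *Spp1* was the most abundant, at 57.7 ± 11.3 CPM per kb (SD, n = 3), well separated from the rest. *Krt19* followed at 4.46 ± 1.10, *Notch2* at 3.95 ± 0.384 and *Epcam* at 3.20 ± 0.555 CPM per kb, and neighbours in this order overlapped. *Onecut1* at 2.00 ± 0.409 and *Krt7* at 1.35 ± 0.326 CPM per kb also overlapped. *Jag1* stood below them at 0.884 ± 0.0810, and *Sox9* was lowest at 0.577 ± 0.183 CPM per kb. *Sox9*, the ductal plate marker, thus rested on 38 to 148 reads per liver library, the thinnest of the 8 genes there.

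The order in WT lung was different. *Krt19* led at 104 ± 7.98 CPM per kb, followed by *Krt7* at 69.8 ± 12.01 and *Epcam* at 50.4 ± 4.60 CPM per kb, with no overlap between these neighbours. *Jag1* (6.61 ± 0.346), *Notch2* (6.31 ± 0.792) and *Spp1* (6.19 ± 2.55 CPM per kb) overlapped as neighbours, and *Sox9* lay below at 1.69 ± 0.299 CPM per kb. *Onecut1* had no read in any WT lung library.

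**Figure D1:**
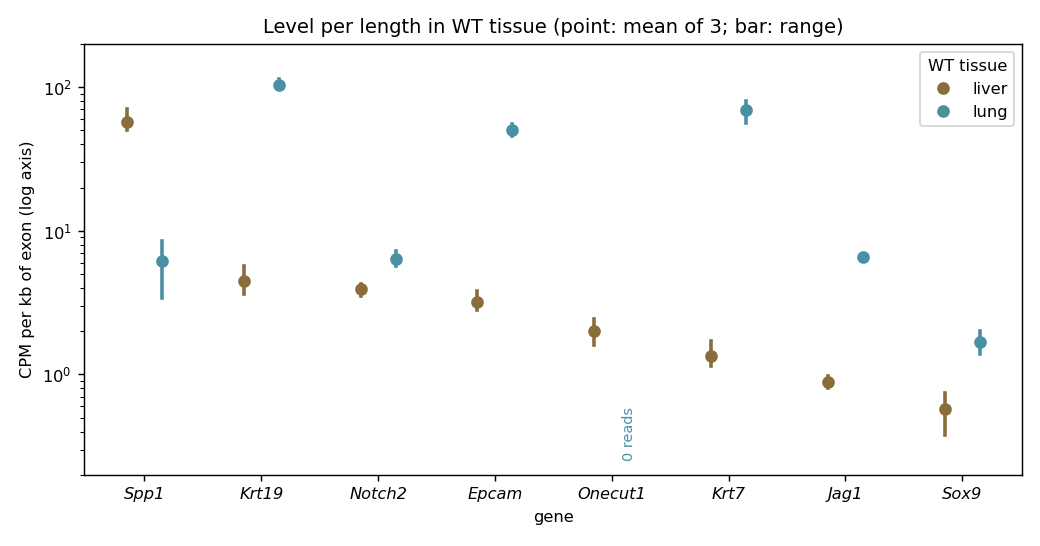
Level of each gene in WT liver (brown) and WT lung (blue), in CPM per kilobase of exon on a log axis; points are means of 3 libraries and bars their range. *Spp1* stands highest in liver at 57.7 CPM per kb, the keratins and *Epcam* stand highest in lung, and *Onecut1* had 0 reads in WT lung.

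All 8 genes differed between WT lung and WT liver by edgeR's quasi-likelihood test (adjusted *p* under 0.05 and at least 1.2-fold, the rule used throughout), against 77% of all 15635 genes tested. Lung was higher for 6 of them, beside 39.8% of all genes: *Krt7* by 5.69 on the log2 scale (SE 0.22), *Krt19* by 4.54 (SE 0.17), *Epcam* by 3.97 (SE 0.13), *Jag1* by 2.89 (SE 0.11), *Sox9* by 1.52 (SE 0.25) and *Notch2* by 0.66 (SE 0.12). *Spp1* was lower in lung, with a log2 fold change of -3.24 (SE 0.29). *Onecut1* was lower in lung too. Its mean of 8.21 CPM in WT liver, scaled over all 12 libraries, was at least 104-fold above the highest limit that a count of 3 reads per WT lung library allows. Scaling to total counts only, which ignores composition, moved the median log2 fold change of all genes in this comparison from 0.04 to 0.83 and changed none of the 8 directions.

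The comparison of null with WT liver asks whether genes of bile duct cells and of the ductal plate were altered in the liver when *Man1a2* was lost. None of the 8 genes passed the test in liver, where 26.9% of the 14343 genes tested did. At an unadjusted *p* under 0.05 there were 2, beside 41.4% of all genes, and DESeq2, run as an alternative, called 2, *Onecut1* and *Notch2*, beside 24% of all genes. The estimate was above 0 for 7 of the 8, the median log2 fold change was 0.52 and that of all genes tested was 0.02. In *Onecut1*, *Jag1* and *Notch2* all 3 null livers lay above all 3 WT livers, an arrangement that 22.8% of all genes tested showed in this direction.

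The sequences before the start sites of these 3 genes are given here because all 3 null livers lay above the WT livers in each, with that of *Spp1* for contrast. They are RefSeq sequences on GRCm38.p6, written 5′ to 3′ on the strand of the gene and limited to bases outside the annotated gene; capitals mark CG dinucleotides. They lie at chr9:74861671-74861920 on the plus strand (*Onecut1*), chr2:137116645-137116770 on the minus strand (*Jag1*), chr3:98013288-98013526 on the plus strand (*Notch2*) and chr5:104434861-104435110 on the plus strand (*Spp1*).

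Onecut1: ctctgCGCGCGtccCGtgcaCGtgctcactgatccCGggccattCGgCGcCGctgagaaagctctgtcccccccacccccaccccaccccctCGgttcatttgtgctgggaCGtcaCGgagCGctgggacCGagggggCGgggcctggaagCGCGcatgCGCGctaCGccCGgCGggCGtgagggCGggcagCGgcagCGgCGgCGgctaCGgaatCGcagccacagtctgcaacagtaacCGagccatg
Jag1: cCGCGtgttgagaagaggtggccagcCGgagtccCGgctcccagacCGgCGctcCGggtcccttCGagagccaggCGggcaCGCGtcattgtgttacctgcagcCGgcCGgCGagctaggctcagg
Notch2: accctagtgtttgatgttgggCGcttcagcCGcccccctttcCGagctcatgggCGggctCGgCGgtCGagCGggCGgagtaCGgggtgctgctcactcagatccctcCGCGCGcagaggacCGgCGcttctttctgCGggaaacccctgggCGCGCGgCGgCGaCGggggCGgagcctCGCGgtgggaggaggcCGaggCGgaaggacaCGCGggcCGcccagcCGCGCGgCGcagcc
Spp1: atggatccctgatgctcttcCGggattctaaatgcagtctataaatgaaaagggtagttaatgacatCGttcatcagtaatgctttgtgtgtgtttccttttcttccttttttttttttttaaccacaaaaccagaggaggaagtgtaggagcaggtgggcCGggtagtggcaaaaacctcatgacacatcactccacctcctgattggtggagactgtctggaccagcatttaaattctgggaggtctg

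Over the 250 bases before the start site there were 31 CG dinucleotides in *Onecut1*, 20 in *Jag1* and 34 in *Notch2*, against 3 in *Spp1* and a median of 6 over 32851 mouse promoter windows. The *Krt7* window held 16 and that of *Epcam* 8. These windows precede RefSeq start sites, and some bases counted and searched lie inside the annotated gene. This holds for the whole *Krt7* window, 1 of the 2 *Spp1* windows and parts of those of *Jag1* and *Notch2*. The *Jag1* bases printed above hold 14 CG dinucleotides. Promoter windows were listed for 6 of the 8 genes. The letters TGGGAA, the core bound by Rbpj, and ATCAAT, a core of the Onecut factors, were sought on both strands. Neither occurred in any of the 7 windows listed for these 6 genes (*Spp1* had 2), while 21.6% and 6.72% of all windows of that length hold them.

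*Onecut1* (chromosome 9, 74861921 to 74891781, plus strand, GRCm38) had the largest estimate. It was measured at 7.72, 4.95 and 6.18 CPM in WT livers 1, 2 and 3, and at 9.52, 7.96 and 19.1 CPM in the null livers. CPM here and below are TMM scaled within the tissue of the library unless stated otherwise. The lowest null value lay just above the highest WT value, and null liver 3 lay far above the other 2. Its log2 fold change came to 0.95 (SE 0.34, 95% interval 0.16 to 1.75), at an edgeR adjusted *p* of 0.0741. DESeq2 gave 0.96 at an adjusted *p* of 0.0192. Without null liver 3 the value was 0.48 (adjusted *p* = 0.162), and without null liver 2 it was 1.17 (adjusted *p* = 0.0409).

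*Notch2* (chromosome 3, 98013527 to 98150361, plus strand) is the receptor whose loss disturbs duct formation in mice and people. *Man1a2* lies on the same chromosome, at 100562208 to 100685503. The part of this linkage in the *Notch2* values was not tested. WT livers held 34.4, 28.4 and 34.9 CPM and null livers 46.7, 35.9 and 55.9 CPM. The groups did not overlap, although null liver 2 lay only slightly above WT livers 1 and 3. The log2 fold change was 0.50 (SE 0.17, 95% interval 0.11 to 0.90; adjusted *p* = 0.0617). It passed the test with DESeq2 (0.51, adjusted *p* = 0.0277), with the replicate number as a block (0.49, adjusted *p* = 0.0295) and without null liver 2 (0.64, adjusted *p* = 0.0203).

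*Jag1* (chromosome 2, 137081456 to 137116644, minus strand), the ligand mutated in most people with Alagille syndrome, stood at 3.95, 3.53 and 4.32 CPM in WT livers and at 4.66, 4.57 and 8.26 CPM in null livers. Null livers 1 and 2 were close to the WT range and null liver 3 was clearly above it. Null over WT, the log2 fold change was 0.57 (SE 0.26, 95% interval -0.05 to 1.18; adjusted *p* = 0.149), and 0.23 without null liver 3. By the two-sided exact permutation test on log2(CPM + 0.5), *Onecut1*, *Jag1* and *Notch2* each reached *p* = 0.1, the smallest value that 3 libraries against 3 allow. Groups that do not overlap always give this value, so it adds nothing to that arrangement.

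*Sox9* (chromosome 11, 112782224 to 112787760, plus strand) was measured at 2.37, 1.18 and 1.94 CPM in WT livers and at 2.99, 1.495 and 4.79 CPM in null livers. Null liver 2 fell within the WT range, so the groups overlapped. This gave a log2 fold change of 0.75 (SE 0.44, 95% interval -0.28 to 1.79; adjusted *p* = 0.239). An interval this wide holds both no change and a more than 3-fold rise.

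Among the markers of formed duct cells, the keratins did not separate the genotypes. *Krt7* (chromosome 15, 101411043 to 101430313, plus strand), an intermediate filament of simple ducts, stood at 6.22, 9.10 and 6.36 CPM in WT livers and at 5.65, 3.50 and 8.58 CPM in null livers, a log2 fold change of -0.29 (SE 0.33, 95% interval -1.05 to 0.47; adjusted *p* = 0.536). *Krt19* (chromosome 11, 100140810 to 100148665, minus strand), its partner keratin, stood at 5.18, 7.92 and 5.79 CPM in WT livers and at 7.06, 4.19 and 9.52 CPM in null livers. Its log2 fold change was 0.14 (SE 0.31, 95% interval -0.58 to 0.86; adjusted *p* = 0.763), and the sign turned with total counts only (-0.01) and without null liver 3 (-0.16). For both keratins null liver 2 was the lowest of the 6 livers.

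*Epcam* (chromosome 17, 87635979 to 87651129, plus strand), an adhesion molecule of duct cells and of hepatoblasts, stood at 4.77, 6.31 and 4.97 CPM in WT livers and at 6.53, 4.62 and 12.1 CPM in null livers. Only null liver 3 lay well outside the WT range. The log2 fold change was 0.53 (SE 0.34, 95% interval -0.26 to 1.32; adjusted *p* = 0.275), and 0.06 without null liver 3.

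*Spp1* (chromosome 5, 104435118 to 104441050, plus strand), secreted by duct cells and also made by other cell types, stood at 64.7, 87.4 and 65.1 CPM in WT livers and at 53.7, 89.1 and 121 CPM in null livers. The null livers spanned the whole WT range. Its log2 fold change of 0.28 (SE 0.28, 95% interval -0.36 to 0.93, adjusted *p* = 0.476) became -0.02 without null liver 3. The highest value with 1 liver left out was 0.54.

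Null liver 3 was the highest of the 6 livers for 7 of the 8 genes, all but *Krt7*, which was highest in WT liver 2. Over all 14343 genes tested, null liver 3 was the highest library for 21.7%. It also held the most hepatoblast and hepatocyte transcript, 179638 CPM. Without it the log2 fold changes were 0.30 for *Sox9* and 0.35 for *Notch2*, -0.65 for *Krt7*, and none of the 8 genes passed the test, beside 21.8% of all genes. The part of this library in the estimates beyond these values was not tested. Null liver 1, the library with muscle transcript, was never the highest for any of the 8, and without it none passed the test either, while 23.8% of all genes did.

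**Figure D2:**
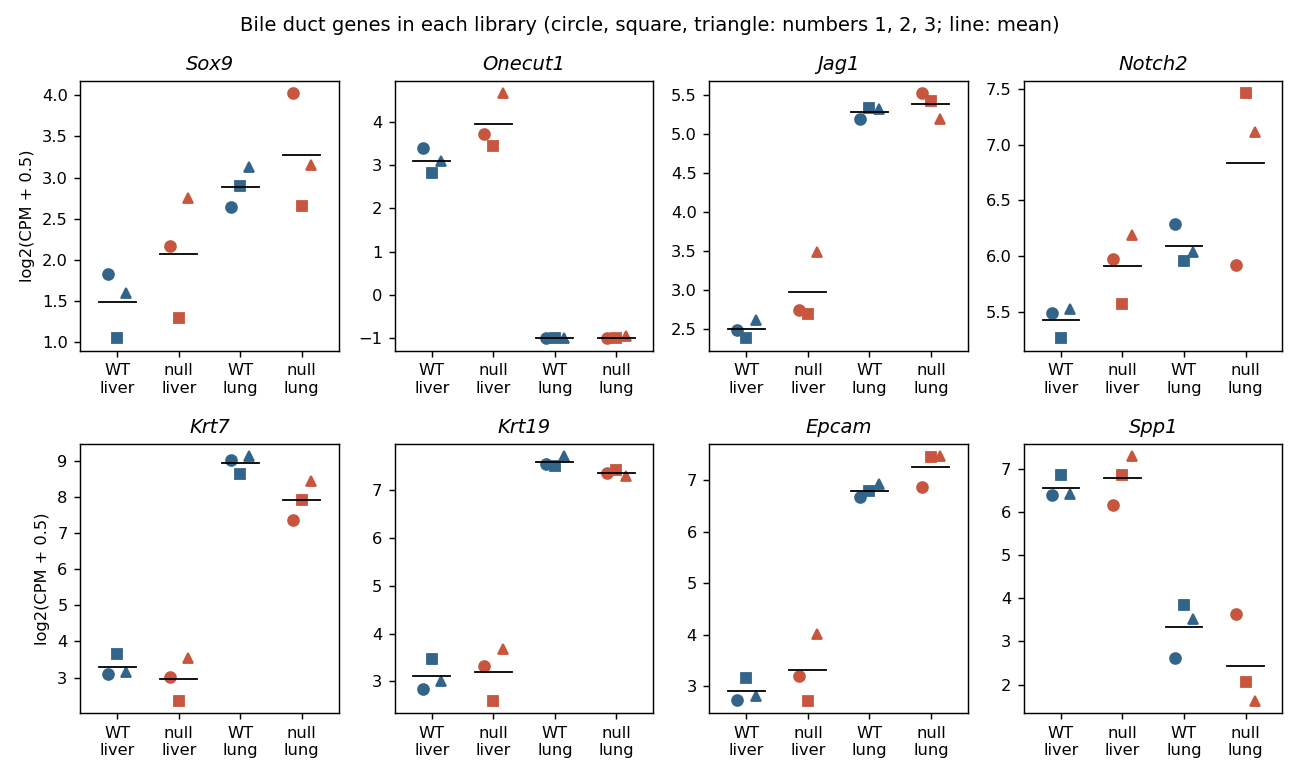
Level of each gene in each library as log2(CPM + 0.5), TMM scaled over all 12 libraries; WT libraries are blue, null libraries red, and lines are group means of 3. Null liver 3 (red triangle) is the highest liver for every gene but *Krt7*, and *Onecut1* sits at the floor in lung.

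Lung was examined as a contrast. None of the 7 genes that could be tested in lung passed, where 0.327% of 15591 genes did. At an unadjusted *p* under 0.05 there were 2, beside 25% of all genes, and DESeq2 called 1, *Krt7*, beside 12.1%. *Onecut1* had 0 reads in 5 lung libraries and 1 read in null lung 3, so it was not tested. Each lung library allows at most between 0.0538 and 0.0852 CPM of it at 3 reads, on the scaling over all 12 libraries.

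*Krt7*, which marks airway and alveolar epithelium as well as ducts, stood at 674, 524 and 739 CPM in WT lungs and at 218, 314 and 459 CPM in null lungs. All null lungs lay below all WT lungs, as for *Krt19*; 19.6% of all genes tested in lung showed this arrangement. The log2 fold change of *Krt7* was -0.97 (SE 0.31, 95% interval -1.72 to -0.21; adjusted *p* = 0.139). *Krt19* stood at 244, 241 and 277 CPM in WT lungs and at 218, 221 and 207 CPM in null lungs, a log2 fold change of -0.23 (SE 0.14; adjusted *p* = 0.331).

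*Epcam* stood at 131, 145 and 159 CPM in WT lungs and at 154, 224 and 233 CPM in null lungs, a log2 fold change of 0.49 (SE 0.20; adjusted *p* = 0.197). *Notch2* stood at 101, 80.9 and 85.5 CPM in WT lungs and at 79.8, 227 and 183 CPM in null lungs, a log2 fold change of 0.87 (SE 0.37; adjusted *p* = 0.213). In both genes null lungs 2 and 3 lay above all WT lungs, while null lung 1, the library short of epithelial transcript, fell among them for *Epcam* and just below them for *Notch2*.

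*Spp1* stood at 7.34, 18.3 and 14.5 CPM in WT lungs and at 15.9, 4.78 and 3.39 CPM in null lungs, a log2 fold change of -0.74 (SE 0.66; adjusted *p* = 0.512). *Sox9*, a factor of the distal lung tips and of cartilage, stood at 7.51, 9.11 and 10.8 CPM in WT lungs and at 20.9, 7.52 and 11.1 CPM in null lungs, with null lung 1 the highest. Its log2 fold change was 0.53 (SE 0.40; adjusted *p* = 0.444). *Jag1* stood between 47.2 and 52.5 CPM in WT lungs and between 47.7 and 60.5 CPM in null lungs, a log2 fold change of 0.11 (SE 0.14; adjusted *p* = 0.651).

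These calls turned on null lung 1. Without it 4 of the 7 genes passed the test, beside 37% of all 15885 genes tested. *Notch2* then rose by 1.197 on the log2 scale (SE 0.14, adjusted *p* = 0.00120) and *Epcam* by 0.65 (SE 0.11, adjusted *p* = 0.00419). *Krt7* fell by 0.74 (SE 0.20, adjusted *p* = 0.0240) and *Spp1* fell by 1.71 (SE 0.39, adjusted *p* = 0.0129). *Krt19* (-0.25), *Jag1* (0.02) and *Sox9* (0.02) did not pass. Over the 7 genes, then, 2 rose and 2 fell among the lungs that held little muscle transcript.

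**Figure D3:**
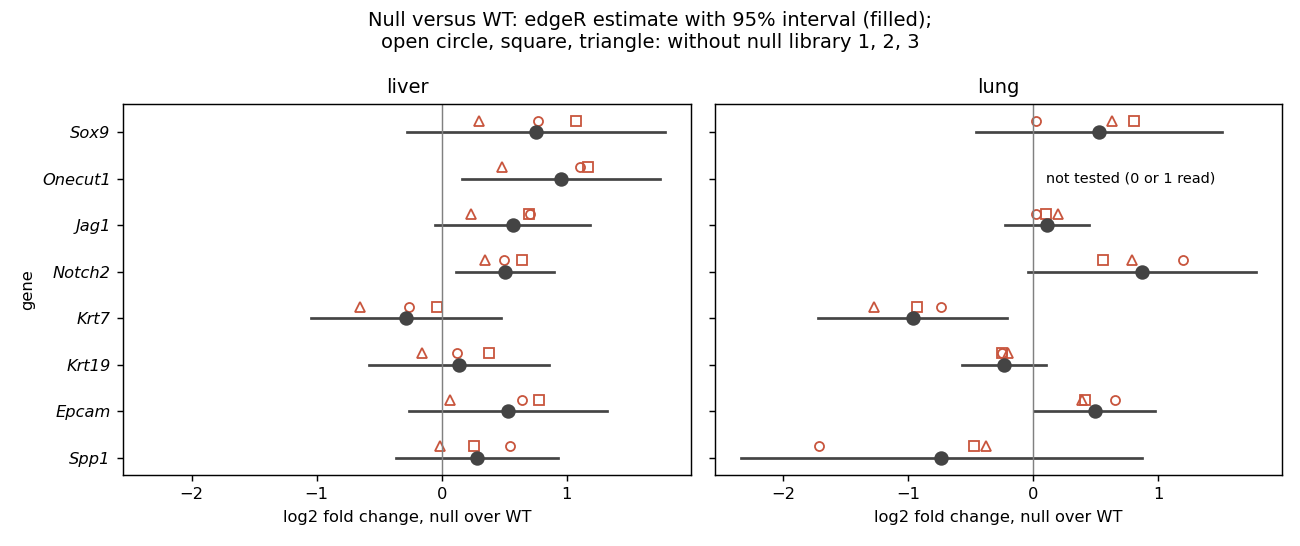
Log2 fold change, null over WT, in liver (left) and lung (right); filled points with bars are edgeR estimates with 95% intervals, and open symbols are the estimates without null library 1 (circle), 2 (square) or 3 (triangle). Leaving out null liver 3 lowers all 8 liver estimates, and leaving out null lung 1 moves *Spp1* in lung from -0.74 to -1.71.

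The difference between lung and liver in the change from WT to null passed the test for none of the 8 genes, with 0 of 8 called by edgeR, 0 at an unadjusted *p* under 0.05 and 0 by DESeq2. Of 16155 genes tested, 0.371% were called, 13.9% lay under the unadjusted threshold and DESeq2 called 3.12%. The difference, lung minus liver on the log2 scale, was -1.03 for *Spp1* (95% interval -2.71 to 0.66), -0.67 for *Krt7* (-1.75 to 0.40), 0.37 for *Notch2* (-0.63 to 1.36) and -0.04 for *Epcam* (-0.98 to 0.90). These intervals are wide enough to hold differences of 1.5-fold or more in either direction for *Notch2* and *Epcam*. With both null libraries of number 1 left out, an alternative chosen after seeing the data, the difference for *Spp1* was -2.24 and passed (adjusted *p* = 0.0207), as did 5.18% of all genes tested. The value for *Onecut1* rests on the single read in lung.

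The gene lists counted from here on were chosen with earlier results of these data known, so their counts are descriptions only. Among 40 Notch pathway genes, 37 could be tested in liver and 12 passed, 9 higher and 3 lower in null. This was a share of 32.4% beside 26.9% of all genes tested, with 13.5% of all genes higher and 13.4% lower. *Maml3*, a coactivator that joins Rbpj and the Notch fragment, stood at 4.66 to 5.54 CPM in WT livers and 9.82 to 10.3 CPM in null livers, a log2 fold change of 0.99 (adjusted *p* = 0.00442). *Dlk1*, a Notch-related surface protein of hepatoblasts, rose by 0.98 (adjusted *p* = 0.00748), from 117 to 145 CPM in WT livers to 214 to 319 CPM in null livers. *Numbl* rose by 0.97 and *Dtx3* by 0.89, members of families that modulate Notch receptors.

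Among the receptors, *Notch1* rose by 0.59 (adjusted *p* = 0.0214) and *Notch3* by 0.79 (adjusted *p* = 0.0429), and *Rbpj*, the DNA-binding partner of all Notch receptors, rose by 0.46 (adjusted *p* = 0.0275). These 3 were picked after their values were seen. The log2 fold change of *Notch4* was -0.28 and that of the ligand *Dll4* was -0.70, and neither passed in edgeR. DESeq2 called *Dll4*, which was lower in null. It called 14 of the 40 list genes, 10 of them higher, beside 24% of all genes. The 3 genes that passed in edgeR and fell were *Pofut1*, which adds the O-fucose that Notch receptors need, the gamma-secretase subunit *Aph1a* and the Notch inhibitor *Numb*. Of 6 target genes of the pathway (*Hes1*, *Hes5*, *Hey1*, *Hey2*, *Heyl* and *Nrarp*), 5 could be tested and 0 passed. At an unadjusted *p* under 0.05 in edgeR there was 1 and DESeq2 called 1, *Nrarp* in both cases, higher in null. Without null liver 1, 1 of the 5 passed in edgeR and was lower in null, beside 23.8% of all genes. *Hes1* stood at 13.4, 14.0 and 9.79 CPM in WT livers and at 11.2, 17.1 and 18.0 CPM in null livers, overlapping. The count of 12 was 4 without WT liver 3, 7 without WT liver 1, 7 without WT liver 2 and 10 without null liver 1. The share of all genes called was then 11.3%, 14.8%, 15.6% and 23.8%. Without null liver 1, 6 of the 10 were higher and 4 lower in null. In a fit of all 12 libraries the count was 2, beside 11.9% of all genes.

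Of 28 other genes of bile duct cells, 24 could be tested and 3 passed (12.5%, beside 26.9% of all genes), with a median log2 fold change of -0.02. Without null liver 1 the count was 4, beside 23.8% of all genes. *Onecut2*, the close relative of *Onecut1*, was lower in every null liver: 48.8, 47.0 and 55.4 CPM in WT livers against 11.8, 21.8 and 15.8 CPM in null livers, a log2 fold change of -1.61 (SE 0.21, adjusted *p* = 0.00343). The 2 relatives therefore had estimates of opposite sign, and by edgeR only that of *Onecut2* passed. *Cldn3*, a tight junction protein, fell by 1.23 (adjusted *p* = 0.0473), from 9.38, 19.7 and 12.8 CPM to 4.35, 9.21 and 4.24 CPM, and no longer passed without any 1 of 5 libraries (all but null liver 2). *Anxa4*, a calcium-dependent membrane-binding protein, rose by 0.87 (SE 0.12, adjusted *p* = 0.00366), from 27, 25.4 and 23.8 CPM to 40.5, 46.5 and 52.6 CPM. The keratins *Krt8* and *Krt18*, shared by hepatocytes and duct cells, gave 0 of 2 calls by edgeR and DESeq2 and 0 at an unadjusted *p* under 0.05.

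Genes of YAP and TGF-beta signalling, pathways that act on biliary fate, were counted in the same way. The list mixes components of these pathways with targets such as *Cyr61* and *Ctgf*. Of 15 tested, 7 passed and all were higher in null liver, with a list median of 0.47, beside 26.9% of all genes called and 13.5% higher. Without null liver 1 the count was 5, beside 23.8% of all genes. This list too was chosen with earlier results of these data known, so its counts support no conclusion about the pathways. *Cyr61* stood at 3.49, 4.58 and 5.42 CPM in WT livers and at 28.8, 8.46 and 31.4 CPM in null livers, a log2 fold change of 2.35 (adjusted *p* = 0.0112), and *Ctgf* rose by 1.72 (adjusted *p* = 0.00675). Both are secreted matrix proteins and well-known YAP targets that also respond to other stimuli. *Tead1*, a DNA-binding partner of YAP, rose by 1.11, and *Wwtr1* (TAZ), a coactivator related to YAP, rose by 0.998, while *Yap1* itself did not pass, at 0.22.

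Of 15 hepatoblast and hepatocyte genes, 3 passed, beside 26.9% of all genes. Without null liver 1 the count was 4, beside 23.8% of all genes. *Prox1*, a factor of hepatoblasts and hepatocytes, fell by 1.33 (SE 0.17, adjusted *p* = 0.00343; 0.0620 in the fit of all 12 libraries), from 41.9, 30.5 and 35.8 CPM in WT livers to 11.8, 13.7 and 17.3 CPM in null livers. *Dlk1*, which also stands in the Notch list, was among them as well. *Alb* (0.22) and *Hnf4a* (0.11), which define hepatocytes, did not pass. 

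**Figure D4:**
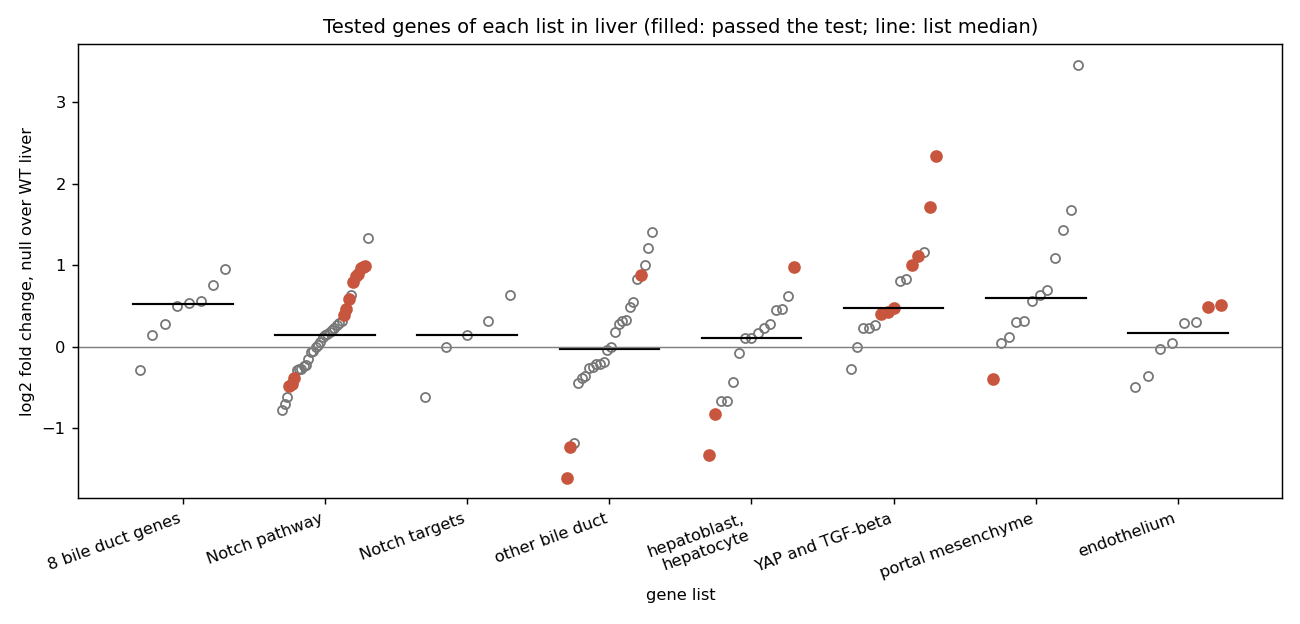
Log2 fold change, null over WT liver, of the tested genes of each list; filled red points passed the test, open points did not, and lines are list medians. The 8 bile duct genes have a median of 0.52 with none passing, and the YAP and TGF-beta list has 7 of 15 passing, all above 0. All lists were chosen with earlier results of these data known.

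Markers of other cells in the liver pieces were counted beside these results. In liver the 12 portal mesenchyme genes, of the cells that carry Jag1, gave 1 call, *Pdgfrb*, which fell by 0.39 and did not pass in 5 of the 6 fits that leave out 1 liver (all but that without null liver 1), nor with the replicate block; the summed level of the list was 652 to 819 CPM in WT livers, 719 and 810 CPM in null livers 2 and 3, and 2681 CPM in null liver 1. Of 8 endothelial genes 2 rose, *Pecam1* by 0.52 and *Cdh5* by 0.49. The list summed to 421 to 437 CPM in WT and 444 to 512 CPM in null livers. Other genes of the list went the other way. *Kdr* stood at 62.4 to 65.1 CPM in WT and 40.3 to 54.6 CPM in null livers. *Tek* stood at 18.9 to 22.1 CPM in WT and 11.3 to 17.5 CPM in null livers. Neither passed in edgeR, while DESeq2 called *Tek* lower. Of 9 macrophage genes 1 rose and 1 fell, of 5 erythroid genes 1 fell, of 11 lung epithelial genes 1 fell and of 4 intestinal genes 2 fell, beside 13.5% of all genes higher and 13.4% lower. Without null liver 1 the macrophage list had 1 lower only, the lung epithelial list 1 higher of 14 in place of 1 lower, and the intestinal list 1 lower. The share of all genes called was 23.8% there. The pancreatic list of 12 genes, which would mark pancreas in the dissected piece, summed to 8.30 to 16.8 CPM in WT and 13.9 to 21.2 CPM in null livers, with 4 to 7 of its genes at 0. Whether the piece held extrahepatic duct was not tested. The mesothelial list summed to 43.4 to 50.9 CPM in WT and 36.8 to 70.1 CPM in null livers, highest in null liver 1. The part of these cells in the results above was not tested.

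For each of the 8 genes the most similar genes were sought among 10939 genes expressed in both tissues, by Pearson correlation over the 12 libraries after the mean of the tissue was subtracted. This is a description over libraries that share animals and depth. *Notch2* was most like *Ubr4* and *Usp9x* (both 0.98), *Onecut1* like *Zfp36l2* (0.95), *Jag1* like *Enc1* (0.95), *Epcam* like *Igf2bp2* (0.95), *Sox9* like *Ubfd1* (0.93), *Spp1* like *Pdia4* (0.93), *Krt7* like *Exosc3* (0.92) and *Krt19* like *Bmp4* (0.85). The 8 genes themselves were not candidates.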

How the data were processed

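Raw read counts per gene symbol were deposited by the authors as 1 table per library, with 0 other columns of per-sample values and no normalization. The authors made stranded poly-A libraries and sequenced them as paired reads; the submitters' processing notes name FastQC, STAR 2.5.2a, DESeq2 and build mm10. The counting program, annotation and strand setting are not given in the sources used here, so genes that overlap others (*Krt7* by *Gm671* on the other strand; *Spp1*, *Onecut1* and *Notch2* by predicted genes on the same strand) are uncertain to that extent. Spreadsheet software had turned 27 symbols into dates.

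Counts were fitted in R 4.3.3 with edgeR 4.0.16 (filterByExpr, TMM, quasi-likelihood test, Benjamini-Hochberg adjustment over all genes tested), within each tissue by genotype, and over all 12 libraries for the interaction. A call needed a change of 1.2-fold or more and an adjusted p-value under 0.05. DESeq2 1.42.0, other scalings and filters, and leaving out each library were alternatives. Procedures were tested on simulated data. Single genes were also compared by exact permutation. Lengths and positions are those of GENCODE M21 on GRCm38, promoter windows those of RefSeq. The 8 genes and the lists were chosen with earlier results of these data known. All 8 were named; from each other list, the called genes with the 4 largest changes at a mean of at least 1 log2 CPM in liver, apart from genes whose values are not reported here.

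Livers and lungs of the same number and genotype deviated together, with correlations over genes of 0.26, 0.22 and 0.18 in WT and 0.47, 0.37 and 0.42 in null, so the numbers pair the tissues. WT and null libraries of 1 number come from different animals. The labels do not say whether the 3 libraries of a group come from separate litters, and p-values measure the spread between these libraries. A count of 3 reads corresponds to 0.0699 to 0.112 CPM before scaling.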

Additional observations from a re-analysis of the deposited data

Results flagged for a closer look

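*Anxa4*, one of the other bile duct genes, moved in opposite directions in the 2 tissues. It was higher in every null liver than in any WT liver (40.5, 46.5 and 52.6 against 27, 25.4 and 23.8 CPM) and lower in every null lung than in any WT lung (50.95, 84.8 and 72.8 against 127, 149 and 156 CPM). The difference of the 2 changes, lung minus liver, was -1.92 on the log2 scale (SE 0.26) and passed the interaction test in edgeR (adjusted *p* = 0.0189), as did 0.371% of all genes tested. Its change in lung alone was -1.05 and did not pass (adjusted *p* = 0.0740). The direction was the same in every alternative, at -1.72 to -2.09, and DESeq2 called it. With the replicate number as a block the value was -1.95 and did not pass (adjusted *p* = 0.105; 0 of 16155 genes passed). It also did not pass when any 1 of the 6 WT libraries, null liver 1 or null lung 3 was left out (adjusted *p* 0.0514 to 0.0944).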

How the results depend on the processing

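For the 8 genes in liver, 0 calls became 2 with DESeq2 and 1 with the replicate block, beside 24% and 23% of all genes. They lay between 0 and 2 when single libraries were dropped, beside 11.3% to 23.8% of all genes. In lung, 0 became 1 with DESeq2, beside 12.1% of all genes, and lay between 0 and 4 with single libraries dropped, beside 0% to 37%. In liver that block joins WT and null pups of 1 number, whose deviations correlated at -0.027, -0.0038 and 0.16. The labels do not say whether these pups share more than the number. As a block over livers and lungs of 1 number, it changed no call of the 8 genes in the 2 comparisons between tissues. For the change between tissues, 0 became 1 without both null libraries of number 1, beside 5.18% of all genes. The Notch list's 12 calls became 2 in the fit of all 12 libraries, beside 11.9% of all genes. They lay between 4 and 12 when single libraries were dropped, and the 3 calls of the other bile duct list between 2 and 5. The share of all genes called then ran from 11.3% to 23.8%. The count of genes at the smallest exact *p* was 3 in liver and 2 in lung with a pseudocount of 0.5 or 0.1 CPM.

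The sign of some estimates that did not pass turned, and the cause was not tested. In liver, *Krt19* went to -0.0083 with total counts only, and with single libraries dropped it lay between -0.16 (no null liver 3) and 0.38. *Spp1* lay between -0.016 (no null liver 3) and 0.54. In lung, *Jag1* went to -0.014 with total counts only. For the difference between tissues, with single libraries dropped, *Sox9* lay between -0.71 and 0.20, *Onecut1* between -0.95 and 1.16, and *Epcam* between -0.30 and 0.42; *Epcam* went to 0.028 with the replicate block and to 0.028 without both null libraries of number 1.

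Total counts only moved the median of all liver genes from 0.02 to -0.11, and their calls from 1931 higher and 1925 lower to 1069 higher and 2284 lower; lung calls moved from 14 higher and 37 lower to 50 and 267. Of the list genes named for liver, *Maml3*, *Dlk1*, *Prox1*, *Cldn3*, *Pdgfrb*, *Pecam1* and *Cdh5* did not pass in the fit of all 12 libraries. Of the Notch list only *Dtx3* and *Numbl* passed there, so *Notch1*, *Notch3*, *Rbpj*, *Pofut1*, *Aph1a* and *Numb* did not pass either. *Pecam1* and *Cdh5* did not pass with total counts only. *Numbl* did not pass when any 1 WT liver was left out, and *Tead1* did not pass without WT liver 2 or 3. Thin counts limit *Sox9* most in liver, and 3 libraries per group limit every interval.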
